A study of Drosophila melanogaster with 2 samples.

Results

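The 9 genes described here encode transcription factors of the embryonic mesoderm and heart: tin, twi, sna, Mef2, bap, bin, Doc1, Doc2 and Doc3. They were chosen by symbol, as 9 of the 13968 protein-coding genes annotated on the chromosome arms, and all 9 were found. The study used ChIP-seq, the sequencing of immunoprecipitated chromatin, to locate the CG8281 protein on the genome of whole Drosophila melanogaster embryos aged 0 to 20 hours. Both samples came from a transgenic line in which CG8281 carries GFP at its C-terminal end, and an antibody to GFP was used on sonicated chromatin of 200 to 800 bp. They are biological replicates 1 and 2 of 1 group, without a second genotype, treatment or age, and the promoter that drives the transgene is not given in the labels. Whole embryos mix all cell types, so a peak cannot be assigned to the mesoderm.

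In fly embryos, Twist (twi), a basic helix-loop-helix activator, and Snail (sna), a zinc finger repressor, set up the mesoderm along the ventral side. Twist then acts upstream of the homeodomain gene tinman (tin), which is needed for the dorsal mesoderm and the heart, and of Mef2, a MADS-box gene needed for muscle differentiation. The homeodomain gene bagpipe (bap) and the forkhead gene biniou (bin) direct the visceral mesoderm, and the Dorsocross T-box genes Doc1, Doc2 and Doc3 act with tin in heart formation.

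Of the 9 genes, 7 had at least 1 summit of the optimal peak list in their window, and sna and bap had none. A window is the gene body plus 5 kb on each side, and a summit is the position of highest enrichment in a peak. The optimal list holds 3921 peaks, which the authors derived from both replicates by a reproducibility analysis. Not all of them have a peak in each replicate's own list: 94.9% overlapped a peak in both. Among all protein-coding genes, 38.3% had an optimal summit in the same kind of window. The only summit of Doc3 was also counted for Doc2, and twi was counted only through a transcript that starts far upstream. The members' windows together spanned 213.0 kb and held 13 distinct summits, or 6.10 per 100 kb, beside 2.85 per 100 kb over the whole chromosome arms. The arms include sequence outside any gene window, so these densities do not cover like regions. Mef2 alone held 7 of the 13. Without Mef2 the density was 3.81 per 100 kb, and without Mef2 and twi, the 2 long genes, it was 5.90. The median window of all protein-coding genes was 12.2 kb, and the windows of 1.53% of them were longer than that of twi (73.0 kb) and of 2.68% longer than that of Mef2 (55.4 kb).

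Only tin had an optimal summit at its own promoter, that is within 500 bp of one of its transcription start sites (TSSs). This is 1 of 9 genes, beside 12.2% of all protein-coding genes. Counted per gene, the 14 placements of the 13 summits fell into 1 at a promoter, 5 in introns, 1 in a 5′ UTR, 3 in upstream flanks and 4 in downstream flanks. No placement was in coding sequence. All 5 intron placements were in Mef2 or twi. These places are relative to the member alone. In the flanks of Mef2, the summits at 9910804 and 9959899 lay 89 and 167 bp from the TSSs of Etf-QO and Pdrg1. The shares of these places over all optimal summits are not given, so the placements have no background.

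Lower thresholds added weak summits to every window except that of Doc3 in the pooled list. The pooled list (both replicates together) and the list of each replicate hold 30000 peaks each, and a rank of 1 is the strongest. In the pooled list all 9 genes had a summit in their window, against 77.4% of all protein-coding genes, and Mef2, tin and Doc1 had one at a promoter, against 36.3%. In replicate 1 these were 8 genes, all but sna, against 90.7%, and Mef2 and tin, against 41.2%. In replicate 2 these were all 9 genes, against 70.4%, and twi, sna, Mef2, tin and Doc1, against 33.8%. The members' windows held 63 distinct pooled summits, 61 of replicate 1 and 70 of replicate 2. Per 100 kb these were 29.6, 28.6 and 32.9, beside 21.8 over the whole arms in each list. The ratio of the members' density to that of the arms was smaller than in the optimal list. These counts were not tested, because the genes were listed with earlier results of these data known.

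**Figure D1:**
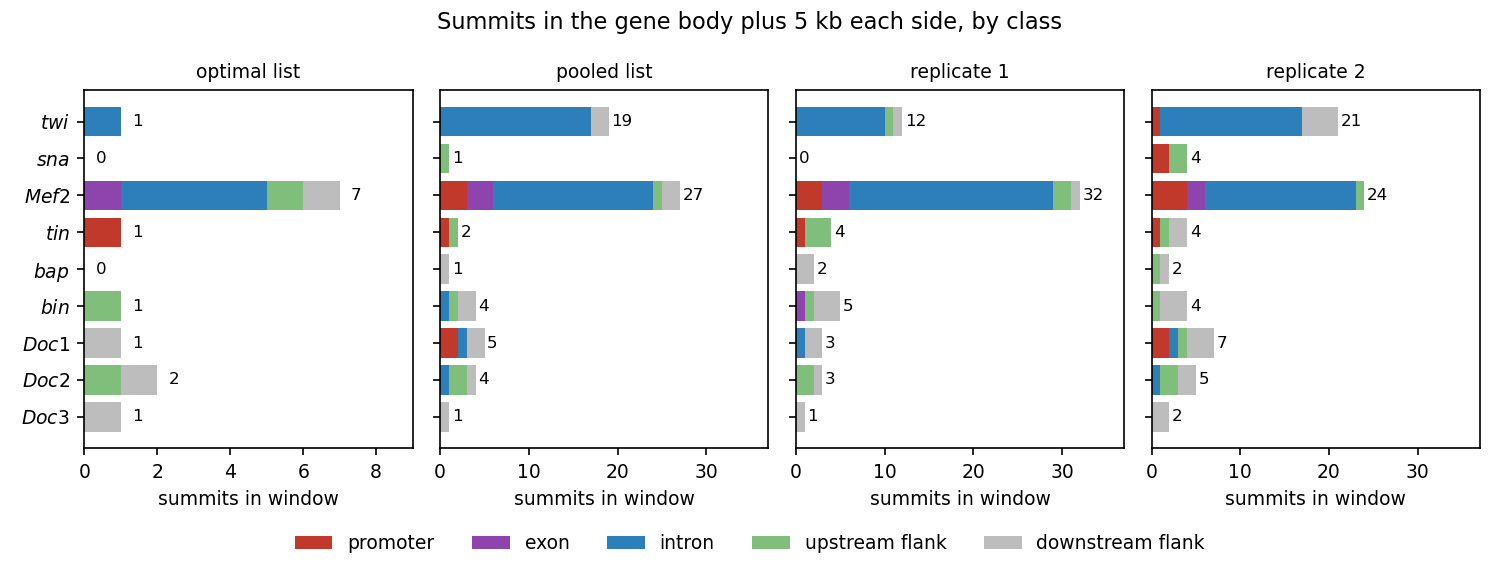
Number of summits in the window of each gene (horizontal axis) in the 4 peak lists, coloured by place relative to that gene; the axis of the optimal list has its own scale. Mef2 had the most summits in each list, with 7, 27, 32 and 24, and sna and bap had none in the optimal list.

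Of the 13 optimal peaks, 12 overlapped a peak in both replicates, 92.3%, beside 94.9% of all optimal peaks. Since the replicate lists went into the making of the optimal list, these shares are descriptions. For these 12 peaks, the replicate summits lay at most 32 bp from the optimal summit, with a median of 8 bp. Signal is the authors' value per peak, of unstated scaling, and so replicates are compared here by rank within their own list. In 6 of the 12, the ranks in the replicates were within a factor of 2 of each other, and 9 of the 12 were among the 3921 strongest of both replicates. The rank was better in replicate 1 for 5 peaks and in replicate 2 for 7. These rank counts were not made over all optimal peaks, so they have no background and describe the members' peaks only. The median signal of the 13 was 248.6, beside 216.7 for all optimal peaks, and 9 of the 13 lay above that value. The files give no read counts, so the depth of each sample is unknown.

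**Figure D2:**
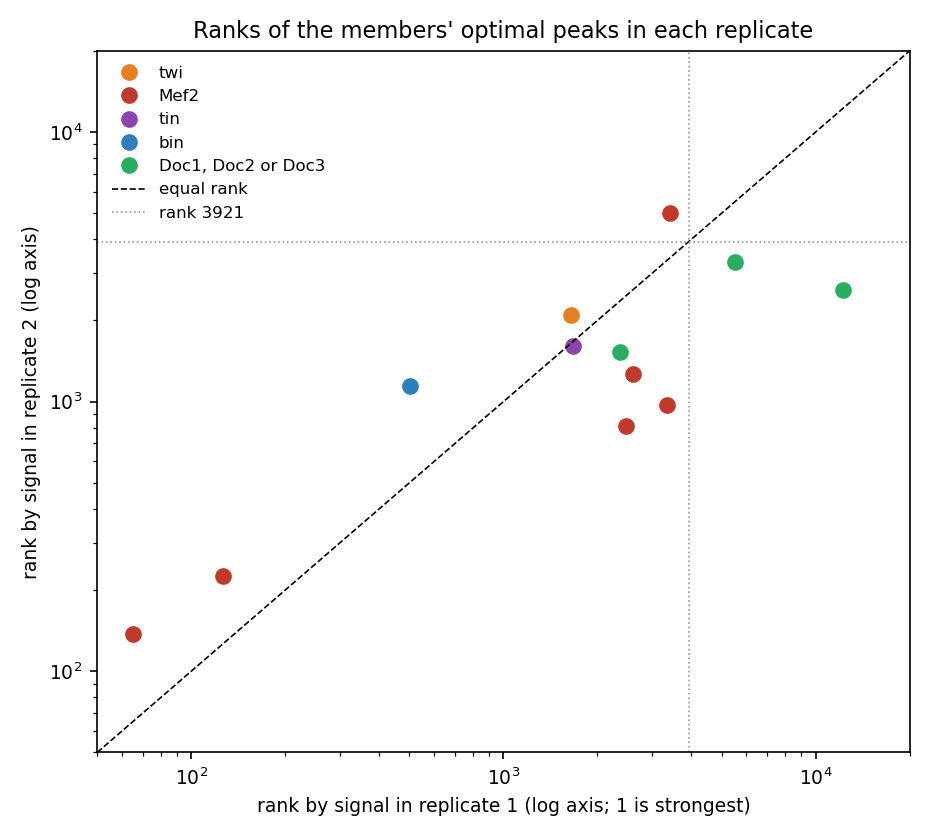
Rank by signal in replicate 1 (horizontal, log axis) and in replicate 2 (vertical, log axis) of the 12 optimal peaks found in both; the dashed line marks equal rank and the dotted lines rank 3921. Both strong peaks of the Mef2 window sit at the lower left, with ranks from 65 to 225. The Doc1 peak lies farthest from the dashed line, at ranks 12215 and 2588.

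The summits at the heart and visceral mesoderm genes lay next to compact genes, all on 3R and 3L. The sequences shown are those at the optimal summits in the windows of tin, bin and the Dorsocross genes, whichever gene has the nearest TSS. Sequences at the Mef2 and twi summits are not printed here. Each is the 201 bp centred on an optimal summit in dm6, on the plus strand of the RefSeq genome of the same assembly. Capitals mark matches on either strand to any of the 12 motifs searched, and overlapping matches form 1 run of capitals. The stretch labelled Doc3 to Doc2 lies between CG5194 and Doc2, as the gene CG5194 separates it from Doc3.
tin promoter, chr3R:21378638-21378838: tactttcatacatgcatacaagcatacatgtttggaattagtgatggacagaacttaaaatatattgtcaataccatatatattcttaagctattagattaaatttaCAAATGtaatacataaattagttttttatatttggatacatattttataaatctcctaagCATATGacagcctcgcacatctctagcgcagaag
bin upstream, chr3L:6989254-6989454: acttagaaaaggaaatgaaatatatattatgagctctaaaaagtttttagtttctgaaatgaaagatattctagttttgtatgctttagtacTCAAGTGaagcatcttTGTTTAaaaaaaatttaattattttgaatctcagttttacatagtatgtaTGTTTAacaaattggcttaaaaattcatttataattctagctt
Doc3 to Doc2 intergenic, chr3L:9011866-9012066: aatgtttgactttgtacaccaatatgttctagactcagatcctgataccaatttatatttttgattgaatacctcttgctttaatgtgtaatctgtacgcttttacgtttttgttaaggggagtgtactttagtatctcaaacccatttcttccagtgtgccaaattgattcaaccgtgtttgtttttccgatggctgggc
Doc2 upstream, chr3L:9023652-9023852: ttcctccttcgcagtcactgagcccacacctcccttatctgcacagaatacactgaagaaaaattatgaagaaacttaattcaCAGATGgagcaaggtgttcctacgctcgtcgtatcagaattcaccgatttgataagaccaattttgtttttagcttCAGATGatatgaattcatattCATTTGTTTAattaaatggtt
Doc1 downstream, chr3L:9045415-9045615: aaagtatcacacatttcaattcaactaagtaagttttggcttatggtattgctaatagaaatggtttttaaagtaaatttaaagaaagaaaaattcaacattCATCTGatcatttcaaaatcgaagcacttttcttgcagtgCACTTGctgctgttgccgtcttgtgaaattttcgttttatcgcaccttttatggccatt

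The summit at tin (FBgn0004110; 3R, 21378977 to 21381970, plus strand) lay 239 bp upstream of its only annotated TSS. The peak covered 21378681 to 21378827 and had a signal of 255.8 at rank 1586 in the optimal list. Its signal was 120.8 at rank 1670 in replicate 1 and 137.6 at rank 1610 in replicate 2. These ranks differed by a factor of 1.04, the least of the 12 peaks found in both replicates. The sequence shown above had a GC content of 27.9% and held 2 E-boxes, the motif of basic helix-loop-helix factors such as Twist, one of them a CATATG. The other summits in the tin window were weak, with signals from 17.2 to 28.9 and ranks from 12718 to 26208 in the pooled and replicate lists. One of them, in the pooled list at 21377382, lay 19 bp inside the neighbouring gene mod(mdg4), at its promoter.

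No optimal summit lay in the window of bap (FBgn0004862; 3R, 21388880 to 21390449, plus strand), another homeodomain gene of this region. The nearest was the tin promoter summit, 10142 bp upstream of the bap gene body. All 3 other lists had a weak summit in the downstream flank, at 21393770 in the pooled list, 3321 bp past the gene end. Its signal was 63.6 at rank 8776 there, 17.4 at rank 22473 in replicate 1 and 27.6 at rank 15816 in replicate 2. Its rank was thus better in the pooled list than in either replicate. No list had a summit at the bap promoter.

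The summit at bin (FBgn0045759; 3L, 6990622 to 6994447, plus strand) was the strongest among the compact genes. It lay in the upstream flank, 1268 bp before the only TSS, in a peak from 6989318 to 6989557. Its signal was 464.5 at rank 737 in the optimal list, 292.4 at rank 503 in replicate 1 and 174.1 at rank 1143 in replicate 2. It stood among the 3921 strongest peaks in both replicates, and the replicate 1 summit fell on the same base. The sequence shown was the poorest in GC of the 13, at 22.4%, and held 1 match to TCAAGTG, the motif of the Tinman protein, and 2 matches to TAAACA, a core of forkhead sites. Weaker summits lay downstream, between bin and Mp, a collagen gene. The stronger of these, at 6997216, had a signal of 99.4 at rank 5017 in the pooled list, with ranks of 6511 in replicate 1 and 7730 in replicate 2. At the Mp promoter a summit ranked 11599 in the pooled list lay within the bin window.

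The Dorsocross genes lie in a row on 3L, in the order Doc3, Doc2 and Doc1, and the windows of Doc3 and Doc2 overlap. One optimal summit, at 9011966, counted for both Doc3 (FBgn0035954; 9005196 to 9007249, plus strand) and Doc2 (FBgn0035956; 9012686 to 9019246, minus strand). It lay downstream of both genes, 4717 bp past the end of Doc3 and 720 bp past the end of Doc2. The nearest protein-coding TSS was that of CG5194, at 2128 bp. CG5194 lies between Doc3 and Doc2, so the summit lay between CG5194 and Doc2. Its signal was 246.4 at rank 1669 in the optimal list, 90.3 at rank 2361 in replicate 1 and 141.9 at rank 1532 in replicate 2. The replicate summits lay 2 and 3 bp away, and none of the 12 motifs matched in its sequence. In the pooled list and in replicate 1 it was the only summit in the Doc3 window, and replicate 2 added 1 weak summit of rank 24374, in the 3′ UTR of CG5194.

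The second optimal summit in the Doc2 window lay 4506 bp upstream of its TSS, at 9023752. It was near the lower end of the optimal list, with a signal of 130.9 at rank 3608, where the lowest signal was 122.7. It ranked 5516 in replicate 1 with a signal of 42.7 and 3294 in replicate 2 with a signal of 82.2. A stronger optimal summit lay just outside the window, 6673 bp upstream of Doc2 at 9025919, with a signal of 309.9 at rank 1266. Its ranks were 1443 in replicate 1 and 1144 in replicate 2. Over the 49.8 kb from the start of the Doc3 window to the end of the Doc1 window, the optimal list thus held 4 summits.

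The optimal summit at Doc1 (FBgn0028789; 3L, 9041375 to 9045042, plus strand) differed most in rank between the replicates among the 12 peaks found in both. It lay 473 bp past the gene end, at 9045515, and 1924 bp upstream of Argk2, the gene of the nearest TSS. Its signal was 133.0 at rank 3536 in the optimal list. In replicate 2 it was 97.3 at rank 2588, but in replicate 1 it was 24.1 at rank 12215, a difference in rank of 4.72 times. A summit in the Doc1 intron, at 9042845, fell just below the optimal list with a pooled signal of 119.3 at rank 4065. It was found at more alike ranks, 3980 in replicate 1 and 4335 in replicate 2, with signals of 57.0 and 67.5. The pooled list also had 2 weak summits at the Doc1 promoter, 169 bp upstream and 30 bp downstream of the first TSS, with ranks of 11399 and 18944. Replicate 1 had none at that promoter.

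**Figure D3:**
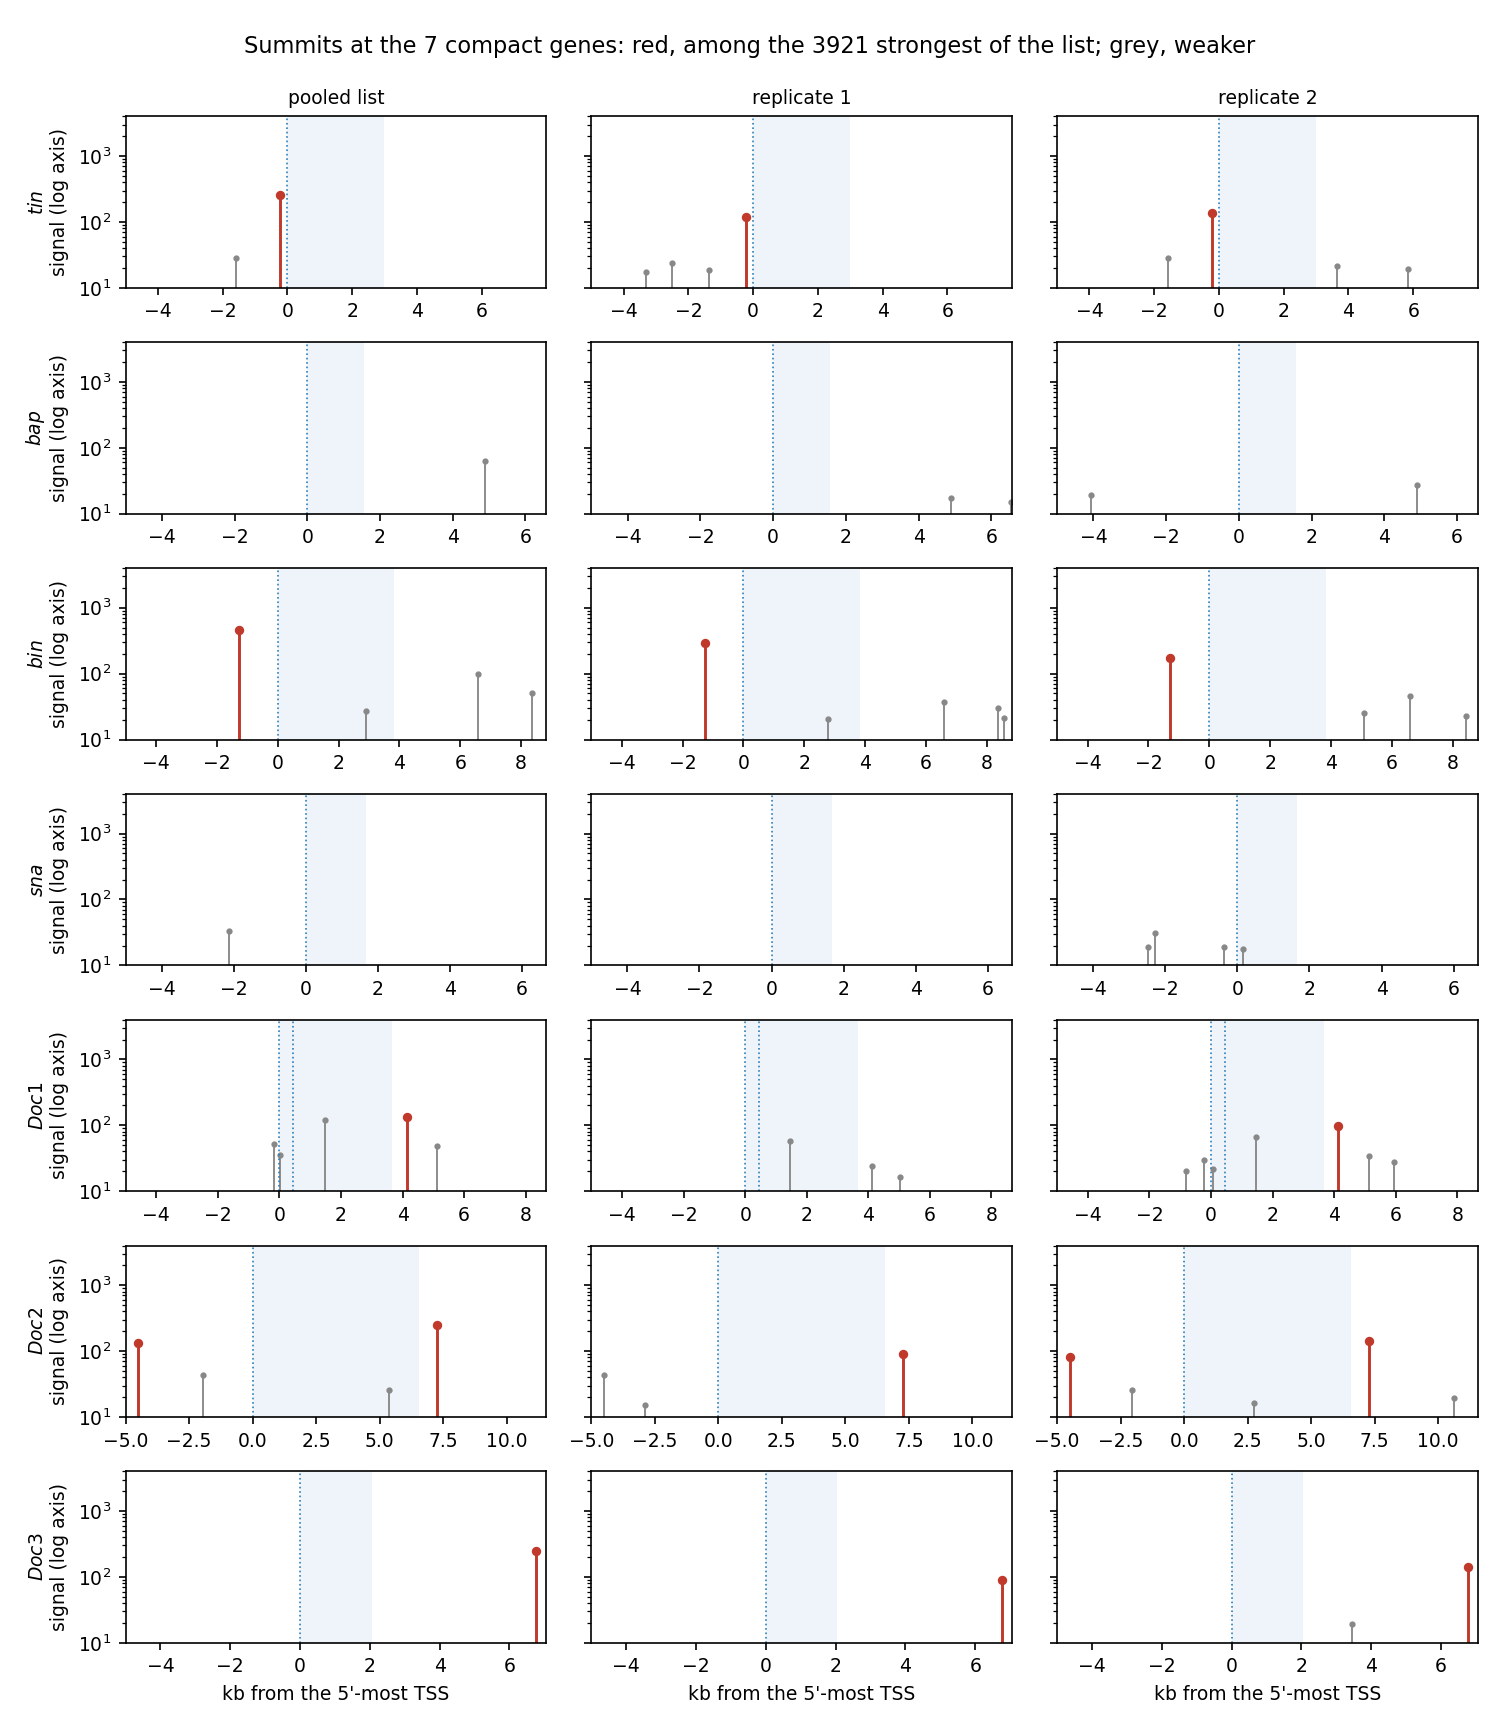
Summits in the windows of the 7 compact genes by distance from the gene's 5′-most TSS in kb, in the direction of transcription (horizontal), and signal (vertical, log axis), in the pooled list and each replicate. Red stems are among the 3921 strongest of their list, blue shading is the gene body and dotted lines are TSSs; the strongest stem of tin, of bin and of the summit shared by Doc2 and Doc3 is red in all 3 panels, and all stems of sna and bap are grey.

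The window of sna (FBgn0003448; 2L, 15476593 to 15478260, minus strand) held only weak summits, and replicate 1 had none there. Replicate 2 had 4, with signals from 17.6 to 31.4 and ranks from 13322 to 27489, of which 2 lay at the promoter, 166 bp downstream and 363 bp upstream of the TSS. The pooled list had 1, at 15480391 in the upstream flank, with a signal of 32.7 at rank 21253, below the strongest pooled summit of each of the other genes. The nearest optimal summit lay 20858 bp upstream of the gene body, with lace as the gene of the nearest TSS.

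At twi (FBgn0003900; 2R, 22985374 to 23048325, plus strand) 1 optimal summit lay deep in an intron, at 23018673. The annotation gives twi 3 transcripts, 2 of which start at 23046108 and 23046322, and 1 of which starts at a distal TSS at 22985374. The summit lay 27435 bp upstream of the nearest of these TSSs, and also in an intron of CG42741, a gene on the other strand. The nearest protein-coding TSS was that of CG9896, at 19789 bp. Without the transcript from the distal TSS, the window of twi held no optimal summit. Its signal was 235.1 at rank 1765 in the optimal list, 122.3 at rank 1648 in replicate 1 and 113.2 at rank 2087 in replicate 2, which differed by a factor of 1.27 in rank. The 201 bp around it had the highest GC content of the 13 summits, at 54.7%, and held no E-box.

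The remaining summits in the twi window were weak. In the pooled list they numbered 18, with signals from 26.7 to 62.1 and ranks from 9074 to 27773. Of these 18, 5 overlapped a peak in both replicates, 10 in one replicate and 3 in neither. The proximal promoter of twi had no summit in the pooled list or in replicate 1. Replicate 2 had 1 there, 33 bp upstream of a TSS, with a signal of 16.4 at rank 29583, close to the end of the list.

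**Figure D4:**
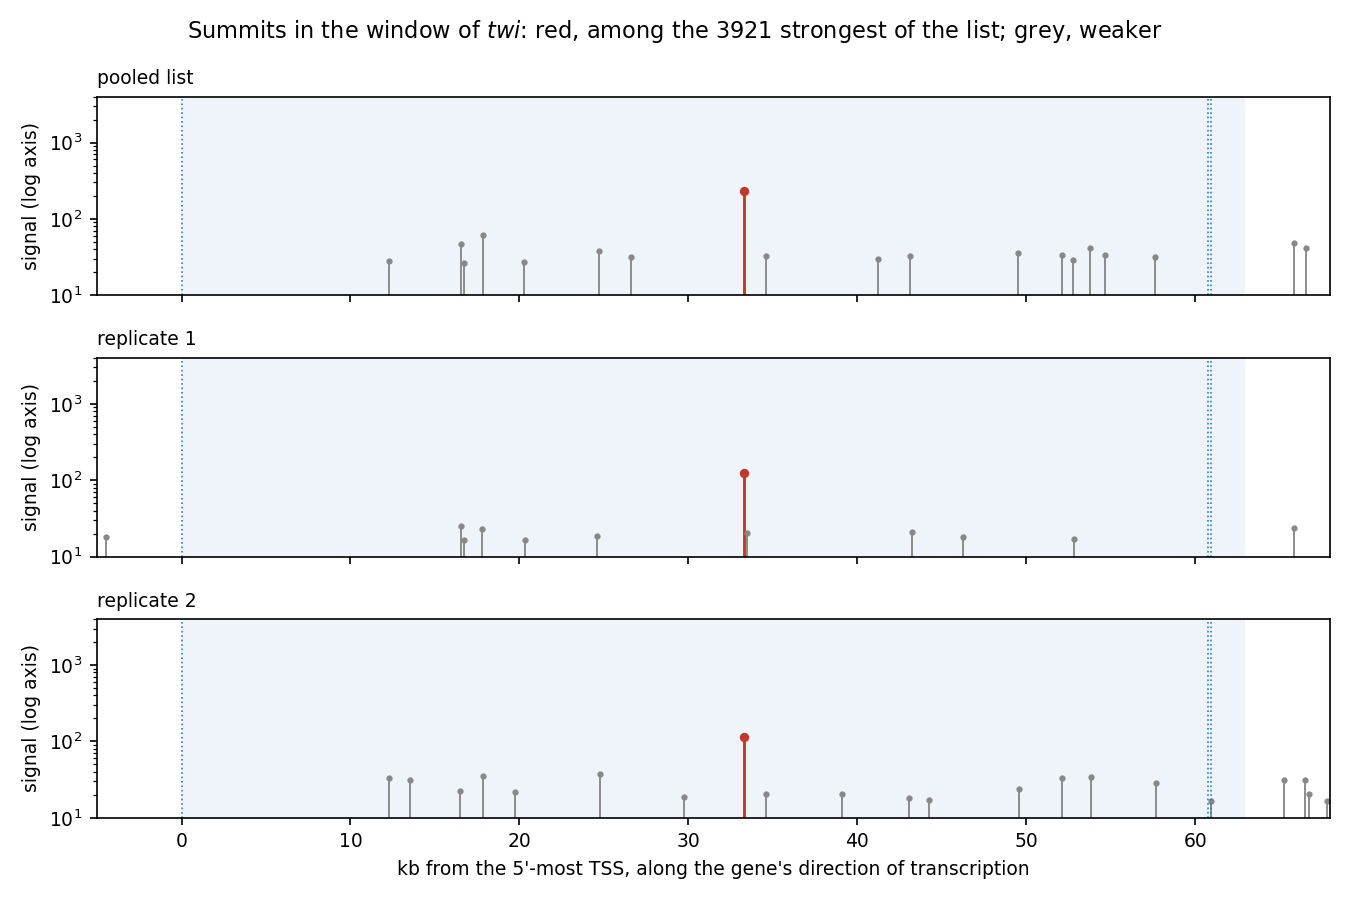
Summits in the window of twi by distance from its distal 5′-most TSS in kb (horizontal) and signal (vertical, log axis), in the pooled list and each replicate; red stems are among the 3921 strongest of their list, blue shading is the gene body and dotted lines are TSSs. The 1 red stem stands at the same place in all 3 panels, far from the proximal TSSs at the right.

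Mef2 (FBgn0011656; 2R, 9913496 to 9958858, minus strand) had the most and the strongest binding of the 9 genes. Its window held 7 optimal summits, a number reached or passed by 51 of the 13968 protein-coding genes, 0.365%. The summits at 9910804 and 9959899, which are among the 7, were nearest to the TSSs of Etf-QO and Pdrg1. The density was 12.6 per 100 kb, close to the 12.1 of Doc2, which held 2 summits. Of the 7 summits, 5 lay within 10682 bp at the 5′ end of the gene. They were spaced 1407 to 4435 bp apart, from an intron to just beyond the 5′-most TSS at 9958858. Since Mef2 is long, this count is not comparable with that of a compact gene.

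The strongest Mef2 summit lay in an intron at 9953652, 5206 bp downstream of the 5′-most TSS, in a peak from 9953387 to 9953888. Its signal was 2269.7 at rank 95 in the optimal list, 10.5 times the median of all optimal peaks. In replicate 1 it was 1321.3 at rank 65 and in replicate 2 it was 962.7 at rank 137. It was the strongest summit among the 9 genes in each list. The 201 bp around it had a GC content of 50.2% and held 1 match to TCAAGTG, the Tinman motif.

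The next strongest summit of the Mef2 window lay upstream of the gene at 9959899, among other promoters. Its signal was 1437.6 at rank 171, with 842.7 at rank 126 in replicate 1 and 602.6 at rank 225 in replicate 2. It was 1041 bp upstream of the nearest Mef2 TSS, but only 167 bp from the TSS of Pdrg1 and within the promoter of Pal1, so that the peak cannot be assigned to Mef2 by distance. Its sequence matched none of the 12 motifs.

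The other 3 intron summits near the 5′ end were of medium strength, and all ranked better in replicate 2. At 9956998, 1860 bp downstream of the 5′-most TSS, the signal was 267.2 at rank 1489, with 66.3 at rank 3331 in replicate 1 and 198.5 at rank 970 in replicate 2. At 9955591, 3267 bp downstream, the signal was 248.6 at rank 1652, with 83.7 at rank 2600 in replicate 1 and 162.4 at rank 1269 in replicate 2. The sequences at both held the E-box CACATG, a Twist site form, and the first also held CATATG. At 9949217, 4453 bp upstream of the second TSS at 9944764, the signal was 310.7 at rank 1260, with 87.0 at rank 2477 in replicate 1 and 224.1 at rank 814 in replicate 2. Ranks at these 3 summits differed by factors of 2.05 to 3.43 between replicates, whereas both strong summits of the Mef2 window ranked better in replicate 1.

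Both remaining optimal summits of the Mef2 window were close to the lower limit of the list. The summit at 9942971, in a 5′ UTR exon 1793 bp downstream of the second TSS, had a signal of 123.8 at rank 3881, with ranks of 3425 in replicate 1 and 5023 in replicate 2. The summit at 9910804, in the downstream flank, had a signal of 127.3 at rank 3745. It ranked 4805 in replicate 1 and had no peak in replicate 2, the only such case among the 13. It lay 89 bp from the TSS of Etf-QO, the next gene, and 2692 bp past the end of Mef2.

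Below the optimal list, the Mef2 window held 20 further pooled summits, and 11 of these overlapped a peak in both replicates. The strongest, at 9949436 and 9935793, had signals of 120.5 at rank 4012 and 118.0 at rank 4127. All 3 Mef2 TSSs had a pooled summit within 500 bp, 225 bp downstream of the first, 105 bp downstream of the second and 359 bp upstream of the third. Their signals were 58.3 at rank 9849, 77.6 at rank 6836 and 32.9 at rank 21096, all far below the strong intron summit.

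**Figure D5:**
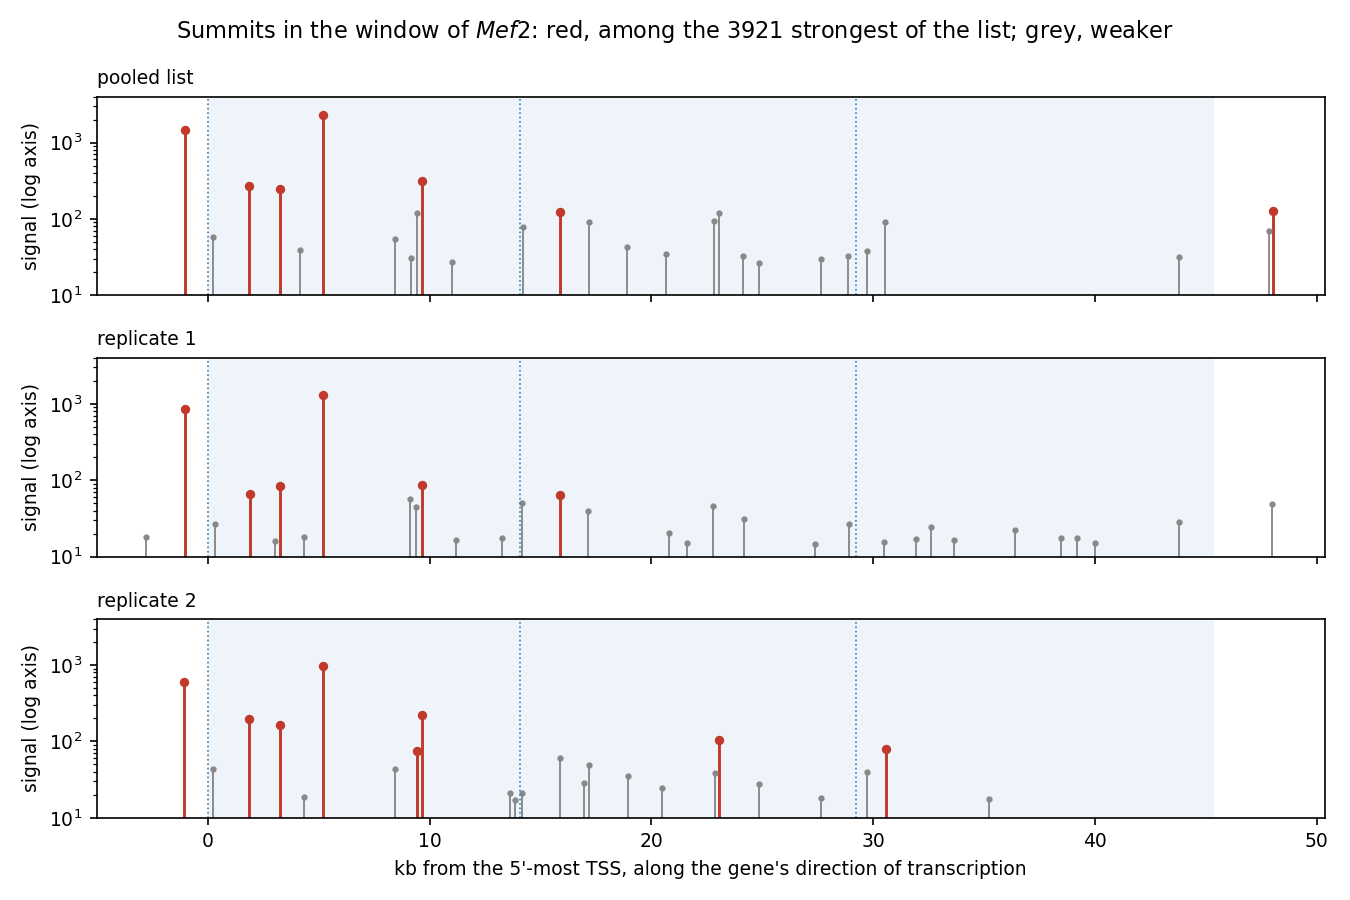
Summits in the window of Mef2 by distance from its 5′-most TSS in kb, in the direction of transcription (horizontal), and signal (vertical, log axis), in the pooled list and each replicate; red stems are among the 3921 strongest of their list, blue shading is the gene body and dotted lines are the 3 TSSs. The 5 red stems at the left, between the upstream flank and the second TSS, recur in all 3 panels, with the highest at signals of 2269.7, 1321.3 and 962.7.

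Sequence motifs, among them those bound by the members' own proteins, were counted at the 13 summits. The search covered 100 bp on each side of a summit and both strands, and since 7 of the 13 summits share the Mef2 window, the summits are not independent. E-boxes (CANNTG) were present at 10 of 13 summits, 76.9% (exact 95% interval 46.2 to 94.96%), beside 61.5% of all 3921 optimal summits. In flanks of the same total length, centred 500 bp to either side, they were present at 7 of the 13 and at 66.1% of all, so that E-boxes were no more frequent at optimal summits in general than beside them. Among E-box forms, CACATG was at 2 summits beside 7.86% of all, CATATG at 2 beside 8.11%, and the Snail form CAGGTG at 1 beside 4.59%. The Tinman motif TCAAGTG, which contains an E-box, was at 2 of 13, those of bin and of the strong Mef2 intron peak, beside 3.62% of all optimal summits and 3.77% of their flanks. In the members' flanks it was at 1 of 13. The forkhead core TAAACA was at 4 of 13 beside 26.0%.

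GAGAG, the motif of GAGA factor, was at 3 of 13 beside 22.9% of all optimal summits. The Mef2 consensus was at 0 of 13 (exact upper limit 24.7%), beside 10.4% of all, and it was in the flanks of 4 of the 13. None of the 13 held the Zelda motif CAGGTAG, the T-box motif AGGTGTGA, the M1BP motif GGTCACACT or the DRE motif TATCGATA, which were at 1.05%, 0.383%, 0.816% and 1.63% of all optimal summits. The median GC content was 36.3% at the members' summits and 36.8% at all. Matches are descriptions of letters, not of binding by these factors, and none of these shares was tested.

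A list of 30 other mesoderm and heart genes was examined in the same way. Of these, 17 had an optimal summit in their window, 56.7%, beside 38.3% of all protein-coding genes, and 5 had one at a promoter, 16.7%, beside 12.2%. The strongest window summit was at zfh1, a zinc finger homeodomain gene of mesoderm and muscle, in an intron 1942 bp upstream of a TSS, with a signal of 5134.7 at rank 36. It was followed by an intron summit at svp, a nuclear receptor gene of heart cells (1650.1, rank 144), and by flank summits at sr (932.5, rank 281), a tendon gene, and tup (699.8, rank 428), a LIM-homeodomain gene of the heart. The fifth was the promoter summit of org-1, a T-box gene of visceral mesoderm (477.0, rank 696). The other promoter summits were at Poxm (380.4), stumps (198.9) and htl (136.7), the last an FGF receptor gene of mesoderm spreading, and at tup (131.3). None of these 30 genes had more optimal summits in its window than ths, an FGF ligand gene, with 5, and 13 had none, among them pnr, H15, eve, Him and da.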

How the data were processed

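The deposited files are narrowPeak lists on dm6. Per the labels and file descriptions, each replicate list was called by the authors on that replicate's alignment against a control, the pooled list on both, and the optimal list was derived from these 3 by irreproducible discovery rate. None of the sources used here names the aligner, the peak caller or its thresholds. The authors' signal value per peak has no stated scaling and was ranked within each list. The deposited -log10 q was 3.92 throughout the optimal list and was not used further.

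A summit is column 2 plus column 10, written 1-based. Genes and TSSs came from Ensembl release 115 on the same assembly, and sequence from the RefSeq genome. Places were assigned in the order promoter (500 bp), exon, intron and flank. A peak shared by replicates overlapped by 1 bp or more. Scripts ran under Python 3.11.15 with pandas 2.3.3, SciPy 1.17.1, NumPy 2.4.6 and, for plots, Matplotlib 3.10.9, and summit placement and motif search were tested on simulated data. With 1 group, no test between samples was possible. The intervals of motif shares are exact Clopper-Pearson intervals at 95% and cover counting error only.

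The members, the 30 other genes and the 12 motifs were chosen with earlier results of these data known. The text names all 9 members with every optimal summit, up to 5 other genes by window summit and by promoter summit, and genes of nearest TSSs. For weak summits, ranges and examples chosen after their values were seen are given, as are ths and the 5 named genes without a summit.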

Additional observations from a re-analysis of the deposited data

How the results depend on the processing

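The count of 13 distinct optimal summits was 10 to 14 when each replicate's own 3921 strongest peaks were used (without the other replicate), that of 7 genes with a window summit was 6 to 7, and that of 1 gene with a promoter summit was 1 in both. The stronger upper part of the list (1960 peaks) gave 9 summits at 6 genes. Lower thresholds raised the counts by construction: the 7842 strongest pooled peaks gave 22 summits and 2 genes with a promoter summit, and the whole pooled list 63 and 3. Without flanks 6 summits at 2 genes (Mef2 and twi) were left. Requiring that the nearest protein-coding TSS be the member's, chosen after seeing the data, left 8 summits at 4 genes. Leaving out the distal transcript of twi, also not planned, left 12 summits at 6 genes. Apart from the whole pooled list, the share of all protein-coding genes under these settings is not given. The gene counts therefore cannot be set against a background. Flanks of 2 or 10 kb, promoters of 250 or 1000 bp and the 5′-most TSS alone moved none of these counts over the 9 genes by more than 1.5 times, but with flanks of 2 kb the window of Doc2 held 1 summit in place of 2 and that of Doc3 held 0 in place of 1. Of the 12 peaks shared with both replicates, 8 stayed with reciprocal overlap of at least 50% of each peak and 9 with only the strongest peaks of each replicate. With 50 bp to either side, E-boxes were at 69.2% of the members' summits and 36.95% of all optimal summits, and the CAGGTG match was lost. No paired analysis was possible because the replicates form 1 group. Depth is unknown, so a missing weak peak, as at sna in replicate 1, cannot be read as absence of binding.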

Other observations

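The 10 words of 8 bases with the largest excess in number over flanks at the 3908 optimal summits outside the members' windows, a search added after seeing the data, were counted at the members' summits. At least 1 of these words was at 4 of 13 members' summits, beside 38.7% of the other summits and 20.0% of their flanks. Because the words were picked by that excess, the difference between the other summits and their flanks follows from the choice. A word at few of the other summits can be missing from 13 summits by counting alone, and no difference was tested. The 4 were those of tin, of bin, of the stretch between CG5194 and Doc2, and of Mef2 at 9956998. Each word found there was built of A and T only. The words actgactg, agtcagtc, ctgactga and gtcagtca, which overlap each other, were at 5.17 to 5.68% of the other summits and 0.691 to 0.870% of their flanks, and at none of the 13 members' summits.

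A summit at 21384823 on 3R, in the overlap of the tin and bap windows and 4057 bp upstream of bap, was listed in replicate 2 alone, with a signal of 19.4 at rank 24610.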
